A study of Mus musculus with 4 samples.

Results

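Replication and S-phase genes are a set of 40 genes that license origins, unwind and copy DNA, supply nucleotides or drive the G1/S transition. They were chosen by symbol from the 18193 genes that single-gene probe sets of the array name, and all 40 were found, with 88 probe sets among 45101. Where a gene has several probe sets, the one with the highest mean stands for it. Deposited log2 values under the median of all values (log2 6.27) were set to this floor, and 36 of the 40 genes lay above it on at least 1 of the 4 arrays, beside 12224 of all 18193 genes. The 4 genes under it everywhere, Ccne2, Cdc6, Gins1 and Tyms, are described apart.

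The cells were mouse embryonic fibroblasts (MEFs) of C57BL/6 embryos, and all were kept in medium without serum (0% FCS). The 4 groups were FAN -/- cells with TNF, FAN -/- cells untreated, FAN +/+ cells with TNF and FAN +/+ cells untreated, with 1 Affymetrix whole-genome array each. Treated cells had 8 h without serum and then 16 h with 50 ng/ml tumour necrosis factor (TNF), and untreated cells had 24 h without serum. FAN, encoded by Nsmaf, is an adaptor that binds the TNF receptor, and the design asks what TNF does to these cells with and without it. No array of serum-fed cells was part of the design. Whether the 2 arrays of a genotype came from separate embryos, passages or cultures is not stated in the labels, so a difference between genotypes may also be one between 2 cell preparations, and p-values speak of the spread between these arrays only.

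Groups follow the sample titles. The genotype entry of 2 samples goes against the title, calling the TNF-treated FAN +/+ sample a knockout and the untreated FAN -/- sample a wild type. Their free-text descriptions speak of staged embryos and do not describe these cells. Nsmaf had log2 values of 7.48 with TNF and 7.91 untreated in FAN -/- cells, against 8.55 with TNF and 8.95 untreated in FAN +/+ cells, which goes with the titles (-1.06 ± 0.11 log2, SE, n = 2 arrays per genotype, limma adjusted p = 0.0193). Its signal stayed above the floor in FAN -/- cells, and whether its probes lie within the deleted stretch is not known here. The medians of all probe sets lay between 6.21 and 6.30 log2 on the 4 arrays. All 10 fibroblast markers were above the floor on every array, with summed signals of 75400 and 88400 in FAN -/- cells and 102000 and 103000 in FAN +/+ cells. Of the 10, 3 fell in FAN -/- cells, beside 3.67% of all genes tested. Lum, which encodes a collagen-binding proteoglycan, had 7.45 with TNF and 8.78 untreated log2 in FAN -/- cells, against 13.42 and 12.75 in FAN +/+ cells (limma adjusted p = 0.0161). Dcn, another such proteoglycan gene, had 11.19 and 11.51 in FAN -/- cells, against 13.32 and 12.65 in FAN +/+ cells (adjusted p = 0.0347). Pdgfra, a growth factor receptor gene, had 9.62 and 9.46 in FAN -/- cells, against 11.43 and 10.89 in FAN +/+ cells (adjusted p = 0.0115). Of 8 leukocyte markers 4 were above the floor, and the defining marker Ptprc lay under it everywhere (4.04 to 4.20). Summed signals of the 8 were 1000 with TNF and 1580 untreated in FAN -/- cells, against 1010 and 756 in FAN +/+ cells. Untreated, all 4 above the floor were higher in FAN -/- cells, with a median of 0.89 log2. Among them, untreated Lyz2 had 9.60 in FAN -/- against 7.89 in FAN +/+ cells, and untreated Csf1r 7.90 against 6.60. With TNF the median was 0.01, and 0 of the 4 passed the limma test for genotype. Above the floor were also 2 of 5 endothelial, 3 of 5 epithelial and 2 of 4 muscle markers. Of the muscle markers, Des, a muscle intermediate filament gene, rose in FAN -/- cells (7.92 with TNF and 7.79 untreated, against 7.09 and 7.10 in FAN +/+ cells, 0.76 ± 0.11, adjusted p = 0.0342), and Acta1 was at 0.84 ± 0.19 (adjusted p = 0.0854). Myod1 and Myog, which define muscle cells, lay under the floor on every array. The part of these cell-type differences in the results was not tested.

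DNA is copied once per cell cycle. In G1 the origin recognition complex, Cdc6 and Cdt1 load rings of the Mcm2 to Mcm7 helicase onto origins. At the start of S phase cyclin E and E2F transcription factors promote expression of the replication genes, Cdc45 and the GINS complex switch the helicase on, and polymerases held by the sliding clamp Pcna copy both strands. Transcripts of many of these genes are low in fibroblasts that have left the cycle, as happens on serum withdrawal, and are higher in cycling cells. In bulk RNA a smaller share of cycling cells and less RNA per cycling cell cannot be told apart.

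**Figure D1:**
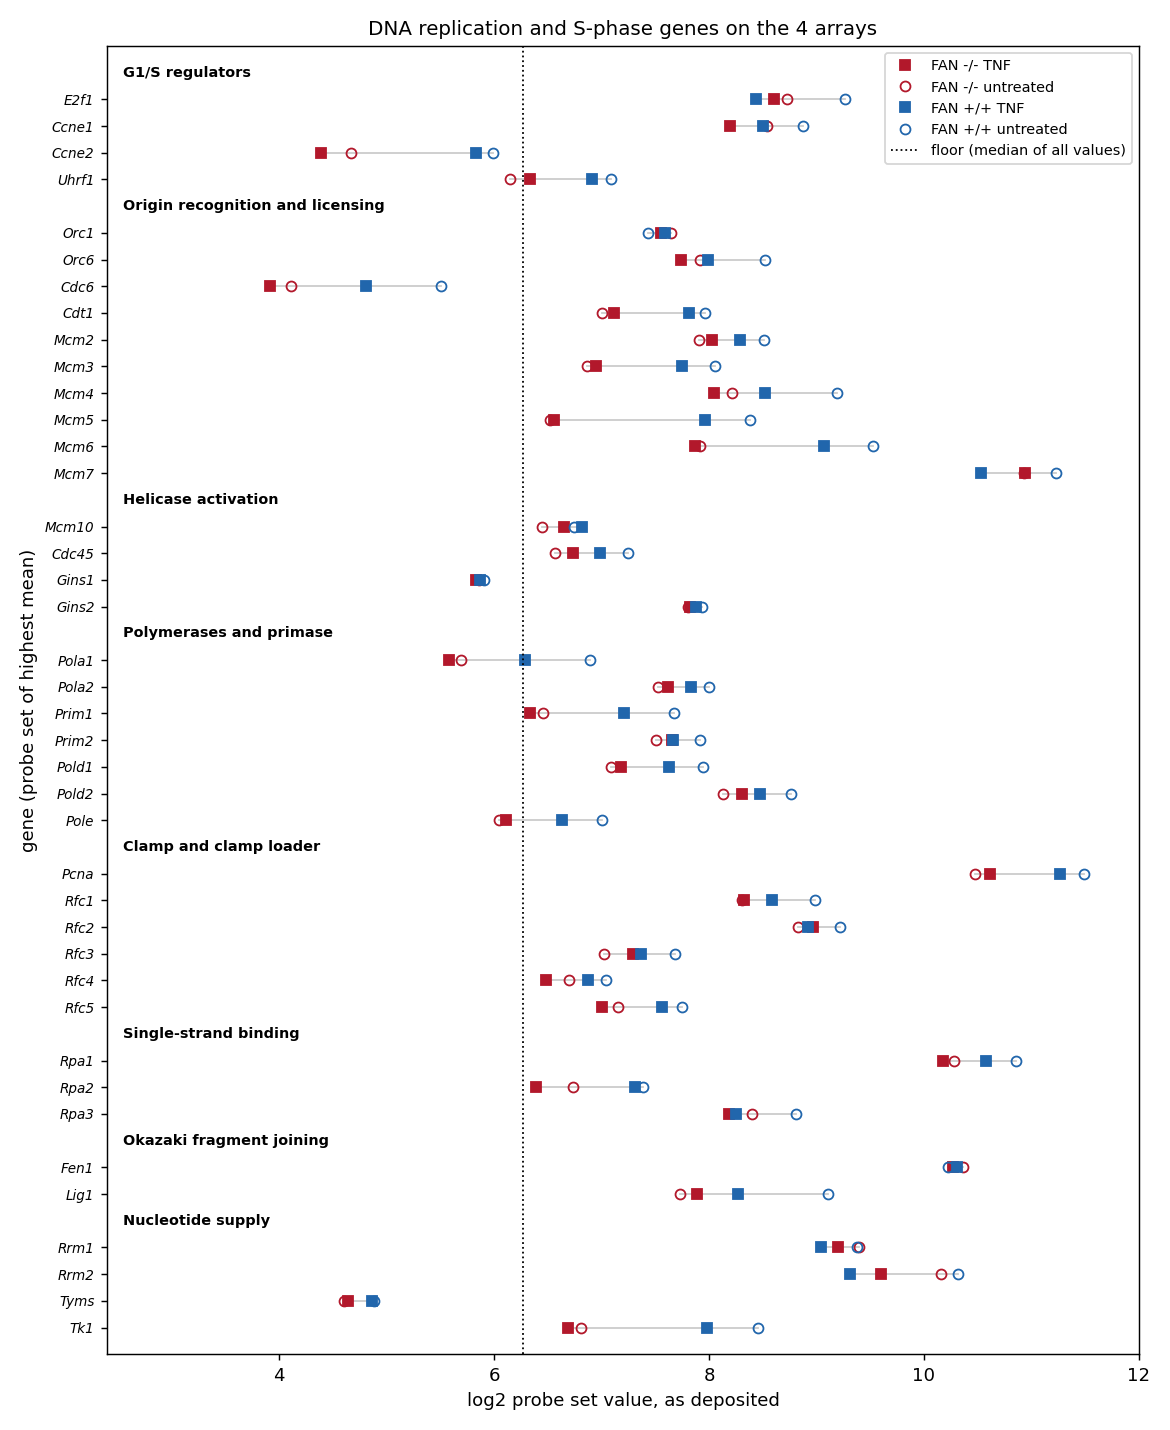
Log2 probe set values (x axis) of the 40 replication and S-phase genes (rows, by role) on the 4 arrays. Red marks FAN -/- and blue FAN +/+ cells, squares TNF and open circles untreated, and the dotted line is the floor at 6.27. Open blue circles are the rightmost point in 32 of the 36 genes above the floor, and both red points lie left of both blue points in 27.

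Most replication genes had lower values in FAN -/- than in FAN +/+ cells, with and without TNF. Both FAN -/- arrays lay under both FAN +/+ arrays for 27 of the 36 genes, against 24.0% of all 12224 genes, and for 0 of the 36 both lay above, against 24.0% of all. Genotype and TNF were fitted together as additive terms with limma, which leaves 1 residual degree of freedom, over the 11817 genes that exceeded the floor on 2 or more arrays. In this fit, with 2 arrays per genotype, 9 of the 36 fell in FAN -/- cells and 0 rose (Benjamini-Hochberg adjusted p under 0.05), where 3.67% of all genes tested fell and 2.94% rose. The 9 were Mcm3, Mcm5, Mcm6 and Cdt1 of origin licensing, the primase gene Prim1, the clamp gene Pcna, Rpa2, Tk1 and Uhrf1. At an unadjusted p under 0.05, 22 were lower and 0 higher, beside 13.3% and 11.2% of all genes.

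The median log2 difference over the 36 genes was -0.61 between untreated FAN -/- and untreated FAN +/+ cells, where the median of all genes was -0.03. Of the 36, 33 were below 0 (53.6% of all genes), 21 were at least 1.5-fold lower (7.39% of all genes) and 7 at least 2-fold (2.89%). With TNF the median was -0.26, against 0.01 for all genes. Here 31 of 36 were below 0 (45.2% of all genes), 8 were at least 1.5-fold lower (6.00% of all genes) and 3, Mcm5, Mcm6 and Tk1, at least 2-fold (2.64%). No replication gene was 1.5-fold higher in either comparison, where 4.42% of all genes untreated and 4.47% with TNF were. These are 1 array against 1 and carry no p-value.

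Beside the spread borrowed from other genes, the error in this fit is the disagreement between the TNF differences of the 2 genotypes. A gene such as Lig1, with a large genotype difference that was unequal with and without TNF, therefore did not pass. The calls also depended on what was fitted. When all 18193 named genes entered the fit, 0 of the 40 replication genes passed (13 at an unadjusted p under 0.05), and 0 of all genes fell. When the TNF term was left out, 0 of the 36 passed (19 at an unadjusted p under 0.05), where 0.0508% of all genes tested fell. With the floor raised to the 70th percentile of all values 3 of 20 passed, where 5.07% of all genes tested fell.

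Among the roles, origin recognition and licensing had the lowest median genotype differences: 7 of its 9 genes above the floor were at least 1.5-fold lower in FAN -/- cells untreated (median -0.96 log2) and 4 with TNF (median -0.48). The helicase subunits differed among themselves. Mcm5 had log2 values of 6.56 with TNF and 6.52 untreated in FAN -/- cells, against 7.96 with TNF and 8.38 untreated in FAN +/+ cells. The groups did not overlap, and Mcm5 fell 3.10-fold in FAN -/- cells (-1.63 ± 0.15 log2, SE, limma adjusted p = 0.0153). This call depended on the probe set and on the floor. It was lost with the mean of all 3 probe sets (-0.41, adjusted p = 0.105), with suffixed probe sets (names ending _x_at, _s_at or _a_at, which can match several transcripts) left out (-0.63, adjusted p = 0.0784) and with the floor at the 70th percentile (-0.33, adjusted p = 0.2). Over all settings the adjusted p ran between 0.00665 and 0.334, the highest in the fit of all named genes. The next probe set of Mcm5 was also lower in FAN -/- cells. It had 5.69 with TNF and 5.24 untreated there, both under the floor, against 6.68 and 7.12 in FAN +/+ cells. The third, part of that mean, lay under the floor on every array (4.67 to 4.97). Mcm6 stood at 7.87 with TNF and 7.91 untreated in FAN -/- cells, against 9.07 with TNF and 9.53 untreated in FAN +/+ cells, and fell 2.65-fold (-1.41 ± 0.15, adjusted p = 0.0191). Mcm3 had values of 6.95 with TNF and 6.87 untreated in FAN -/- cells, against 7.75 with TNF and 8.06 untreated in FAN +/+ cells, a 1.99-fold fall (-0.996 ± 0.14, adjusted p = 0.0313). Mcm3 and Mcm6 passed under both probe set alternatives too, Mcm6 with a smaller difference when all its probe sets were averaged (-0.66, adjusted p = 0.0447) and Mcm3 with a smaller one without suffixed probe sets (-0.66, adjusted p = 0.0467). The averages of both genes include a probe set under the floor on every array. In Mcm3, Mcm5 and Mcm6 the FAN -/- values with and without TNF differed little, the most in Mcm3 by 0.083 log2.

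Mcm4 (-0.73 ± 0.16, adjusted p = 0.0788, but 0.0466 with the floor at the 70th percentile) and Mcm2 (-0.43 ± 0.14, adjusted p = 0.157) did not pass, though neither had overlapping groups. Mcm7, the remaining subunit of the ring, did not share this order. It had values of 10.94 with TNF and 10.93 untreated in FAN -/- cells, against 10.53 with TNF and 11.22 untreated in FAN +/+ cells. Both FAN -/- values lay between the FAN +/+ ones, and the genotype difference was 0.055 ± 0.19 log2 (adjusted p = 0.889). The 3 other probe sets of Mcm7 gave 0.36, 0.28 and 0.44 log2 with TNF and 0.013, -0.31 and -0.07 untreated, so that all 4 were higher in FAN -/- cells with TNF.

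Of the loading factors, Cdt1, which brings the helicase to origins, had 7.12 with TNF and 7.002 untreated in FAN -/- cells, against 7.81 with TNF and 7.96 untreated in FAN +/+ cells, and fell 1.77-fold (-0.83 ± 0.12, adjusted p = 0.0355). Its call was lost with the mean of its probe sets (-0.37, adjusted p = 0.202), which includes a probe set under the floor on every array. It was also lost with suffixed probe sets left out (-0.97, adjusted p = 0.129). Orc6, an origin recognition subunit, was at -0.43 ± 0.14 log2 (adjusted p = 0.163). Orc1, the ATPase subunit of the same complex, had 7.55 with TNF and 7.65 untreated in FAN -/- cells, against 7.59 with TNF and 7.44 untreated in FAN +/+ cells, and its groups overlapped.

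Promoter sequences are shown for 3 helicase genes that differ in their genotype difference, Mcm5, Mcm6 and Mcm7, and for Tk1, whose fall lay between those of Mcm5 and Mcm6. They run 5′ to 3′ on the gene's strand, from 250 bases before to 50 bases after the annotated start (RefSeq, GRCm38.p6): Mcm5 at chr8:75109259-75109558 (+ strand), Mcm6 at chr1:128359656-128359955 (- strand), Mcm7 at chr5:138171834-138172133 (- strand) and Tk1 at chr11:117825965-117826264 (- strand). Capitals mark matches to an E2F-like motif, searched as TTTCCCGC, TTTCGCGC, TTTGCCGC and TTTGGCGC on both strands, where matches on opposite strands may overlap.
Mcm5: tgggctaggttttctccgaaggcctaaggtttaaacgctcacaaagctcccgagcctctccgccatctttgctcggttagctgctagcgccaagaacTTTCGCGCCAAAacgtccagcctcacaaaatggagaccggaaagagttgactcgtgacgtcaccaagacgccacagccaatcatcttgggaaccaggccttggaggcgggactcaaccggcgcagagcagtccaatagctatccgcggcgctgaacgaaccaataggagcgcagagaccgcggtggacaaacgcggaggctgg
Mcm6: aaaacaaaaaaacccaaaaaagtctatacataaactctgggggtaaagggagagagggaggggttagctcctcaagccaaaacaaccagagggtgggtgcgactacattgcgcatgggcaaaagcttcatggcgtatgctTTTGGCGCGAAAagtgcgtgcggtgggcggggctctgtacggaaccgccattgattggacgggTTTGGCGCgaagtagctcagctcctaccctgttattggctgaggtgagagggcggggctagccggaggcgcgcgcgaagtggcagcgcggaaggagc
Mcm7: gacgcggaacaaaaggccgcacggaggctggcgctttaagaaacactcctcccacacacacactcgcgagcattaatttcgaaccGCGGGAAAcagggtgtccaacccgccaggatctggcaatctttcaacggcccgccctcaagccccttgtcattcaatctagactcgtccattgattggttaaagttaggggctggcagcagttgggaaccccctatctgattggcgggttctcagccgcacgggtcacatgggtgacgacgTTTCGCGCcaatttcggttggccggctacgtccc
Tk1: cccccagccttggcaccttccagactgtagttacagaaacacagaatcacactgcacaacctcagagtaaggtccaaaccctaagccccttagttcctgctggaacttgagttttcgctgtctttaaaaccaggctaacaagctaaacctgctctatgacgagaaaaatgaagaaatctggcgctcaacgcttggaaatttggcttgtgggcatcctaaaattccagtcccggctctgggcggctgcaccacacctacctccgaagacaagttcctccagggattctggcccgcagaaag
Mcm5 had 2 matches that overlap, Mcm6 had 3, Mcm7 had 2 and Tk1 had 0 in these windows. Mcm7 has a second annotated start, with no match in its window.

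Of the 33 replication genes with a promoter in the reference table, 12 held the motif at 1 or more starts (36.4%), against 2.60% of all 27025 genes with a promoter and 4.58% of the 9852 among them that were above the floor on these arrays. The share was 41.5% (17 of 41) among the other replication genes, described later, and 4.55% (1 of 22) among mitosis genes. Replication genes are textbook targets of E2F and the set was chosen by role, so its share describes the choice and is no test. Ccne2, Mcm4, Gins1, Gins2, Prim2, Pole and Rfc2 have no entry in that table. The median untreated genotype difference was -0.86 log2 over the 11 genes above the floor with a match (range -1.86 to 0.21) and -0.58 over the 20 without one (range -1.65 to 0.14). With TNF the medians were -0.44 and -0.26, and for the TNF response of FAN -/- cells 0.07 and -0.12. The ranges overlapped, and the difference was not tested. Orc1 and Mcm7 hold it and Tk1, Prim1 and Pcna do not. A match is a string of letters, not a measured binding site.

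Among genes that switch the helicase on, none passed the test. Cdc45, which joins Mcm2 to Mcm7 and GINS in the active helicase, had 6.74 with TNF and 6.57 untreated in FAN -/- cells, against 6.99 with TNF and 7.24 untreated in FAN +/+ cells (-0.46 ± 0.14 log2, limma adjusted p = 0.142). Its second probe set went the other way, with 6.69 with TNF and 6.40 untreated in FAN -/- cells. In FAN +/+ cells that probe set had 6.56 with TNF and 6.12, under the floor, untreated. Gins2, a GINS subunit, had 7.82 and 7.81 in FAN -/- cells, against 7.88 and 7.94 in FAN +/+ cells (-0.09 ± 0.11, adjusted p = 0.655). The second probe set of Gins2 differed more, with 7.01 and 6.94 in FAN -/- cells, against 7.26 and 7.58 in FAN +/+ cells. Mcm10, a helicase cofactor, was at -0.23 ± 0.10 (adjusted p = 0.233).

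Of the 7 polymerase and primase genes, 5 were at least 1.5-fold lower in FAN -/- cells untreated and 1, Prim1, with TNF. Prim1, the catalytic primase subunit that lays down RNA primers, had 6.34 with TNF and 6.46 untreated in FAN -/- cells, against 7.21 with TNF and 7.67 untreated in FAN +/+ cells. It fell 2.06-fold (-1.04 ± 0.13 log2, limma adjusted p = 0.0233). With the mean of its probe sets it did not pass (-0.60, adjusted p = 0.121). The other 6 polymerase and primase genes were all below 0 in both treatments and did not pass, with fitted genotype differences from -0.21 for Prim2 to -0.65 for Pold1, the catalytic subunit of polymerase delta (adjusted p = 0.0792). Pola1, the catalytic subunit of polymerase alpha, had 5.58 with TNF and 5.69 untreated in FAN -/- cells, against 6.29 with TNF and 6.90 untreated in FAN +/+ cells. Both FAN -/- values of Pola1 and of Pole lay under the floor, so their untreated differences are bounds, at least 1.55-fold and at least 1.67-fold lower. With no floor Pola1 passed (-0.95, adjusted p = 0.0344). Pola2, an accessory subunit, had 7.61 and 7.53 in FAN -/- cells, against 7.83 and 8.00 in FAN +/+ cells.

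Of the 6 clamp and clamp loader genes, 4 were at least 1.5-fold lower in FAN -/- cells untreated and 1, Pcna, with TNF. Pcna, the sliding clamp that holds polymerases on DNA, had 10.62 with TNF and 10.47 untreated in FAN -/- cells, against 11.27 with TNF and 11.48 untreated in FAN +/+ cells. It fell 1.78-fold (-0.83 ± 0.12 log2, limma adjusted p = 0.0333). The 5 genes of the clamp loader, Rfc1 to Rfc5, had fitted differences between -0.17 for Rfc2 and -0.58 for Rfc5, and none passed, Rfc5 coming nearest (adjusted p = 0.0541). Rfc5 passed with no floor (adjusted p = 0.0479), quantile normalization (0.0449), centring (0.0426) and the mean of all probe sets (0.0349). Rfc3 had 7.30 with TNF and 7.02 untreated in FAN -/- cells, against 7.37 with TNF and 7.68 untreated in FAN +/+ cells. Rfc4 had 6.48 and 6.69 in FAN -/- cells, against 6.87 and 7.04 in FAN +/+ cells.

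Of the 3 subunits of replication protein A, which coats single-stranded DNA, Rpa2 passed. It had 6.39 with TNF and 6.74 untreated in FAN -/- cells, against 7.31 with TNF and 7.39 untreated in FAN +/+ cells, and fell 1.72-fold (-0.78 ± 0.12 log2, limma adjusted p = 0.0344). Its call was lost with suffixed probe sets left out (-0.51, adjusted p = 0.137) and with the floor at the 30th percentile (-0.78, adjusted p = 0.0533). Rpa1 was at -0.49 ± 0.10 (adjusted p = 0.0662). Rpa3 had 8.19 with TNF and 8.40 untreated in FAN -/- cells, against 8.25 with TNF and 8.81 untreated in FAN +/+ cells, and its groups overlapped.

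The genes that finish Okazaki fragments, the short pieces of the lagging strand, differed from each other. Lig1, the DNA ligase that seals them, had 7.89 with TNF and 7.73 untreated in FAN -/- cells, against 8.27 with TNF and 9.11 untreated in FAN +/+ cells. It was 2.59-fold lower in FAN -/- cells untreated and 1.31-fold lower with TNF (-0.88 ± 0.26, limma adjusted p = 0.136). Fen1, the flap nuclease acting just before the ligase, had 10.27 and 10.37 in FAN -/- cells, against 10.31 and 10.22 in FAN +/+ cells, and its groups overlapped.

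Nucleotide supply was also divided. Tk1, thymidine kinase of the salvage pathway, had 6.69 with TNF and 6.81 untreated in FAN -/- cells, against 7.98 with TNF and 8.46 untreated in FAN +/+ cells, and fell 2.76-fold (-1.47 ± 0.14 log2, limma adjusted p = 0.0156). With the floor at the 70th percentile it did not pass (-0.37, adjusted p = 0.179). The ribonucleotide reductase genes did not share this. Rrm2, the small subunit, had 9.60 with TNF and 10.16 untreated in FAN -/- cells, against 9.31 with TNF and 10.32 untreated in FAN +/+ cells. Rrm1, the large subunit, had 9.20 and 9.39 in FAN -/- cells, against 9.04 and 9.38 in FAN +/+ cells. For both genes the genotypes overlapped, with fitted differences of 0.07 ± 0.15 (adjusted p = 0.822) and 0.09 ± 0.11 (adjusted p = 0.672).

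Of the G1/S regulators, Uhrf1, which helps copy DNA methylation behind the fork, had 6.34 with TNF and 6.15 untreated in FAN -/- cells, against 6.91 with TNF and 7.09 untreated in FAN +/+ cells. It fell 1.62-fold in the fit (-0.70 ± 0.11 log2, limma adjusted p = 0.0385), in which its untreated FAN -/- value stands at the floor. It did not pass with the floor at the 30th percentile (-0.75, adjusted p = 0.0671). E2f1, a transcription factor of the G1/S programme, had 8.61 with TNF and 8.73 untreated in FAN -/- cells, against 8.44 with TNF and 9.26 untreated in FAN +/+ cells. Ccne1, a cyclin E gene, had 8.19 and 8.54 in FAN -/- cells, against 8.502 and 8.87 in FAN +/+ cells. Both genes overlapped between genotypes and did not pass (adjusted p = 0.624 and 0.186).

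**Figure D2:**
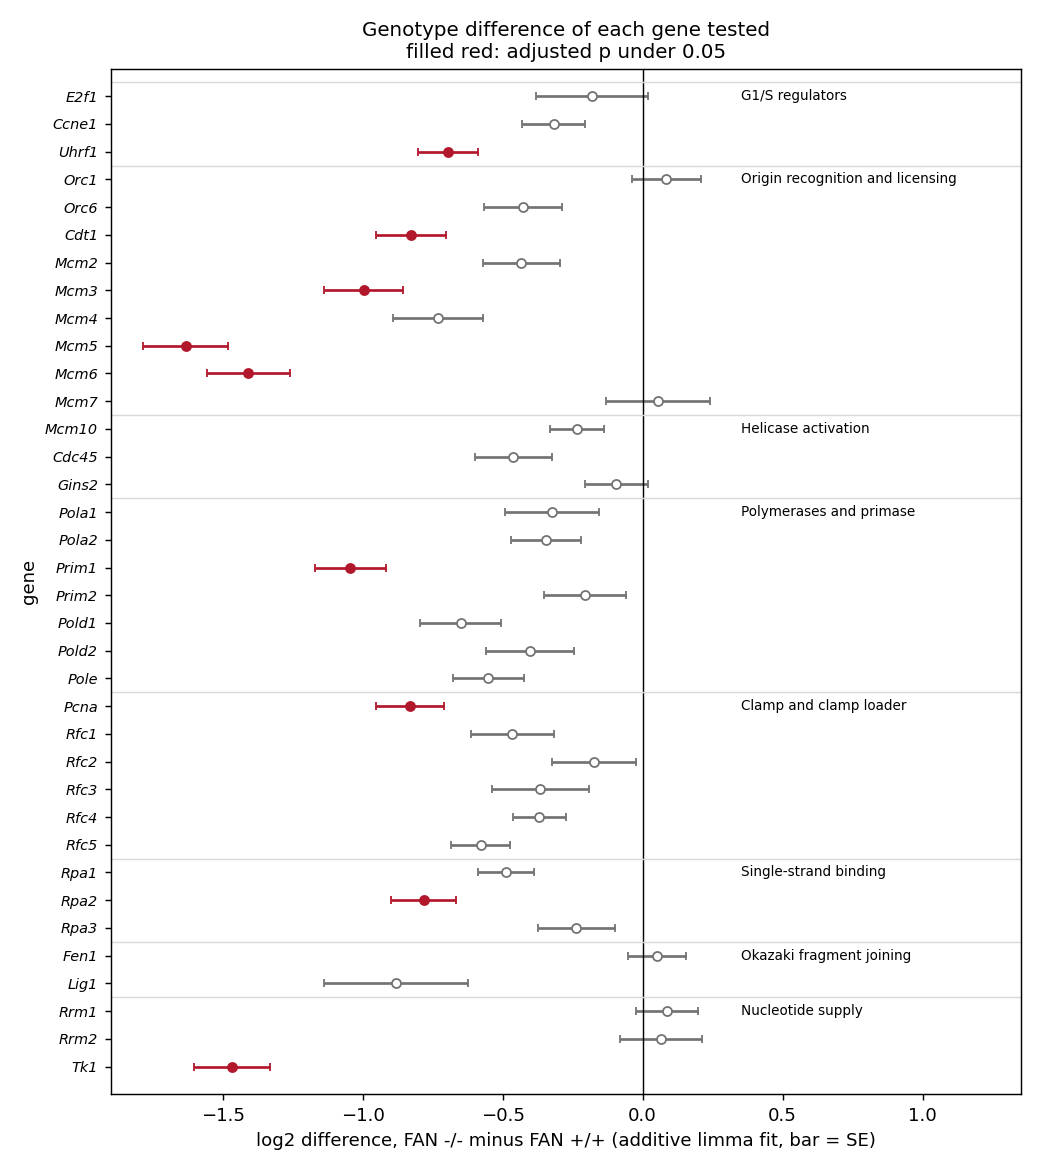
Fitted log2 difference between FAN -/- and FAN +/+ cells (x axis, points, with the SE as bars) of the 36 replication and S-phase genes tested, by role, from the additive limma fit with 2 arrays per genotype. The 9 filled red points passed at an adjusted p under 0.05 and lie between -0.70 for Uhrf1 and -1.63 for Mcm5, while Mcm7, Orc1, Fen1, Rrm1 and Rrm2 lie just above 0.

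Of the 4 genes under the floor, Ccne2, the other cyclin E gene, had 4.39 with TNF and 4.67 untreated in FAN -/- cells, against 5.83 and 5.99 in FAN +/+ cells. Cdc6, which loads the helicase together with Cdt1, had 3.92 and 4.11 in FAN -/- cells, against 4.81 and 5.51 in FAN +/+ cells. In both genes the FAN -/- values were the lower ones, but all 4 lie under the floor and no fold is given. With the floor at the 30th percentile Ccne2 entered the fit and passed (limma adjusted p = 0.0321). Gins1 lay between 5.83 and 5.91 and the thymidylate synthase gene Tyms between 4.61 and 4.88 on the 4 arrays.

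With TNF most replication genes had lower values in FAN +/+ cells, while in FAN -/- cells they were split about evenly. Each of these responses is 1 array against 1, with no replicate check. In FAN +/+ cells 33 of the 36 genes were below 0, against 55.3% of all genes, with a median of -0.31 log2, against -0.03 for all genes. At least 1.5-fold lower were 6 of them, Rrm2, Lig1, E2f1, Mcm7, Mcm4 and Pola1, where 6.50% of all genes were, and 0 were 1.5-fold higher (4.75% of all genes). In FAN -/- cells 16 were below 0 (46.3% of all genes) and 18 above (51.2%), with a median of 0.0045, against 0.0063 for all genes. None reached 1.5-fold there in either direction, where 3.10% of all genes were lower and 3.19% higher by that much.

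Rrm2 had the largest TNF difference in both genotypes, 1.47-fold lower in FAN -/- and 2.02-fold lower in FAN +/+ cells, where it alone reached 2-fold (1.92% of all genes did). This rank and the 2-fold value in FAN +/+ cells depended on the probe set. The other probe sets of Rrm2 gave -0.62 and -0.92 log2 there, and -0.42 and -0.62 in FAN -/- cells. With suffixed probe sets left out, Rrm2 was at -0.62 in FAN +/+ cells, beside -0.83 for Lig1. The fitted TNF effect of Rrm2 was -0.78 ± 0.15 log2 (limma adjusted p = 0.0809). Of the 36 genes 0 rose or fell with TNF in the additive fit, where 1.14% of all genes tested fell and 1.57% rose. At an unadjusted p under 0.05, Rrm2, Ccne1 and Rpa3 were lower and 0 were higher, beside 10.6% and 8.20% of all genes. Both TNF arrays lay under both untreated arrays for 5 genes, E2f1, Ccne1, Rpa3, Rrm1 and Rrm2, which is no larger a share than the 19.4% of all genes that did so. Both lay above for 0, against 18.5% of all genes. Rrm2 alone, of 20 tested, fell with the floor at the 70th percentile (adjusted p = 0.0474), where 2.75% of all genes tested fell.

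The difference of TNF responses, FAN -/- minus FAN +/+, was above 0 for 32 of the 36 genes, against 59.9% of all genes. Its median was 0.36 log2, against 0.05 for all genes. It was above 0 by at least 1.5-fold for 5 genes, Lig1 (0.99), E2f1 (0.71), Mcm7 (0.70), Pola1 (0.61) and Rfc3 (0.59), where 3.63% of all genes were, and below 0 by that much for 0 (2.83% of all genes). Which genes passed depended on the probe set. Others gave 0.44 for E2f1, 0.35, 0.51 and 0.60 for Mcm7 and 0.11 for Rfc3. In turn, another probe set gave 1.05 for Cdt1, 0.63 for Mcm3 and 0.71 for Uhrf1, the last with both FAN -/- values under the floor. Both FAN -/- values of Pola1 lay under the floor, so its response there is set to 0. With no floor its difference of responses was 0.50, short of 1.5-fold, so its place among the 5 depended on the floor. No degree of freedom was left to test the difference of responses.

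The FAN +/+ response, the untreated genotype difference and the difference of responses all use the untreated FAN +/+ array, and 32 of the 36 genes had their highest value on it, against 34.9% of all genes. The exceptions were Orc1, Mcm10, Fen1 and Rrm1. Over the 36 genes the median value was 7.70 log2 with TNF and 7.69 untreated in FAN -/- cells, against 7.97 with TNF and 8.42 untreated in FAN +/+ cells, while over all genes above the floor the 4 medians lay between 8.57 and 8.70. Without that array 2 comparisons remain. The genotype difference with TNF was negative for most of the genes, as given above, and the TNF response of FAN -/- cells was near 0.

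**Figure D3:**
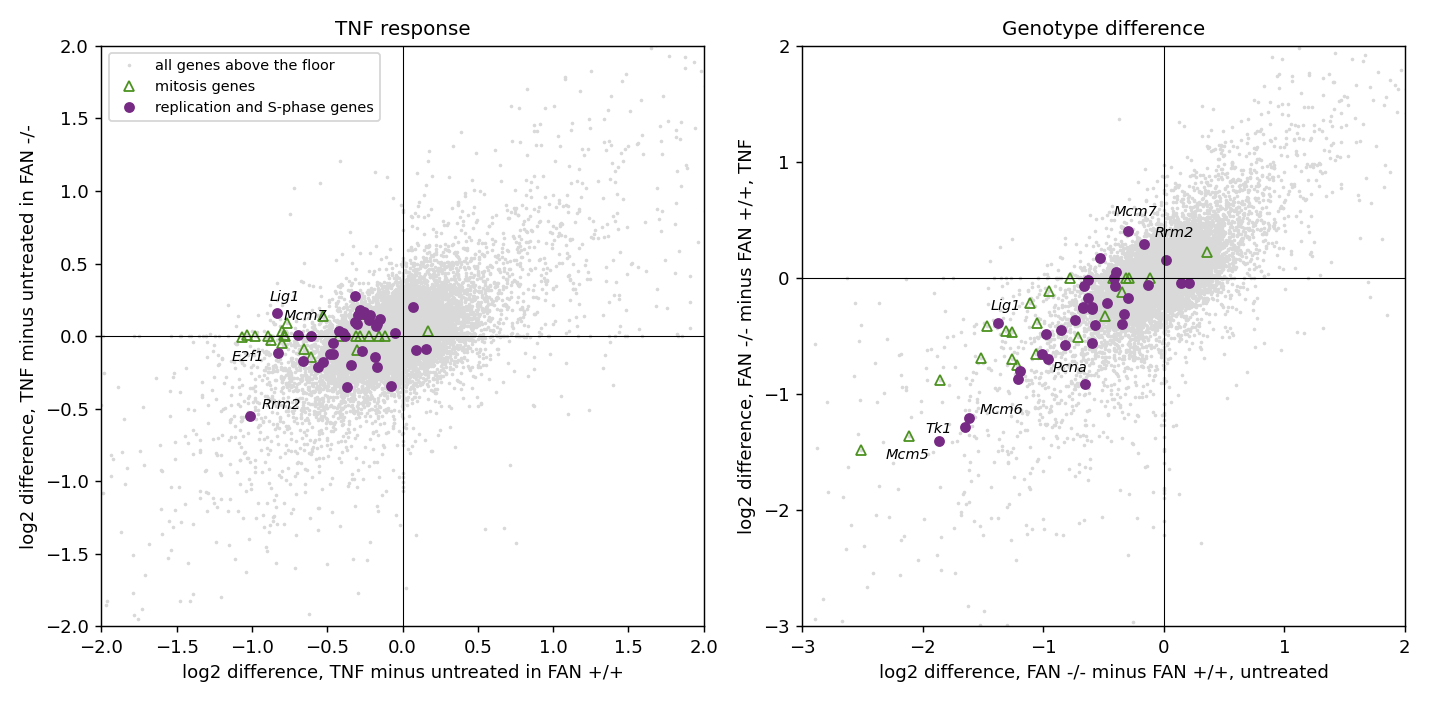
Log2 differences of 1 array against 1 for the TNF response (left panel, FAN -/- on the y axis against FAN +/+ on the x axis) and for the genotype difference (right panel, with TNF on the y axis against untreated on the x axis). Purple points are the 36 replication and S-phase genes, green triangles 22 mitosis genes and grey dots all 12224 genes above the floor, of which 99 and 54 lie outside the axes. Purple points spread left of 0 along the x axis but stay near 0 on the y axis in the left panel, and run to the lower left in the right panel, with Mcm5, Mcm6 and Tk1 at the end.

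Replication genes outside the set of 40 were read from a list of 50, of which 47 are named on the array and 39 lay above the floor. Their median was -0.32 log2 between untreated FAN -/- and FAN +/+ cells and -0.16 with TNF, and at least 1.5-fold lower were 10 of them untreated (7.39% of all genes were) and 2 with TNF, no larger a share than the 6.00% of all genes. Of 36 tested, 3 fell in FAN -/- cells and 0 rose, beside 3.67% and 2.94% of all genes tested. The 3 were Ccna2, the S-phase cyclin A gene (-1.26 ± 0.17 log2, limma adjusted p = 0.0296), Nasp, a histone chaperone gene (-0.71 ± 0.11, adjusted p = 0.0414), and Wdhd1, a fork protein gene (-0.60 ± 0.10, adjusted p = 0.0405). The largest differences of TNF responses were those of Pold3 (0.65), Gmnn, the inhibitor of Cdt1 (0.62), Chtf18 (0.56) and Ccna2 (0.56). Of the 39, 5 were at the floor on both FAN -/- arrays, Gmnn and Chtf18 among them, so that their response there is set to 0. The floor also limits the size of their genotype differences. In the fit 0 of the 36 changed with TNF. At an unadjusted p under 0.05, 2 were lower and 0 higher, beside 10.6% and 8.20% of all genes.

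Mitosis genes were also lower in FAN -/- cells, with the lower median untreated. The median over 22 genes above the floor was -1.06 untreated and -0.40 with TNF between FAN -/- and FAN +/+ cells, and the TNF response had a median of 0 in FAN -/- and -0.63 in FAN +/+ cells. For 9 of the 22, both FAN -/- values were at the floor, which sets their response in FAN -/- cells to 0. The floor also limits the size of their genotype differences, untreated and with TNF. Of 17 tested, 5 fell in FAN -/- cells and 0 rose, beside 3.67% and 2.94% of all genes tested. The 5 were Mki67, the proliferation marker (-1.999 ± 0.27 log2, limma adjusted p = 0.0281), Top2a (-1.74 ± 0.21, adjusted p = 0.0233), Cdk1, Prc1 and Ube2c. Mki67 had 6.27 with TNF and 6.09 untreated in FAN -/- cells, against 7.75 with TNF and 8.78 untreated in FAN +/+ cells. Its untreated FAN -/- value stands at the floor in the fit, so its fitted difference is a bound. Cenpf, Mki67, Birc5 and Nusap1 had the largest differences of responses, from 0.89 to 1.06. Whether mitosis and replication genes differ was not tested.

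Cell cycle inhibitors and D cyclin genes did not go one way. Of 16 tested, 3 rose in FAN -/- cells and 1 fell, beside 2.94% and 3.67% of all genes tested. Cdkn1a, the p21 inhibitor (0.64 ± 0.07 log2, limma adjusted p = 0.0201), Rb1, the retinoblastoma gene (0.84 ± 0.13, adjusted p = 0.0364), and Cdk6 (0.76 ± 0.09, adjusted p = 0.0245) rose, and Cdkn2c, an INK4 inhibitor, fell (-0.74 ± 0.11, adjusted p = 0.0341). With TNF, Cdkn1b, the p27 inhibitor (-0.96 ± 0.12, adjusted p = 0.0359), and Cdkn2c (-0.93 ± 0.11, adjusted p = 0.0324) fell and Cdk6 rose (1.36 ± 0.09, adjusted p = 0.0131), where 1.14% of all genes tested fell and 1.57% rose. The largest differences of responses were those of Cdkn1c (1.12), Cdkn2a (-0.82), Cdkn2b (-0.68) and Ccnd1 (0.66). Cdkn2b had 11.97 with TNF and 12.21 untreated in FAN -/- cells, against 11.43 and 10.98 in FAN +/+ cells, and did not pass (0.88 ± 0.18, adjusted p = 0.0666).

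**Figure D4:**
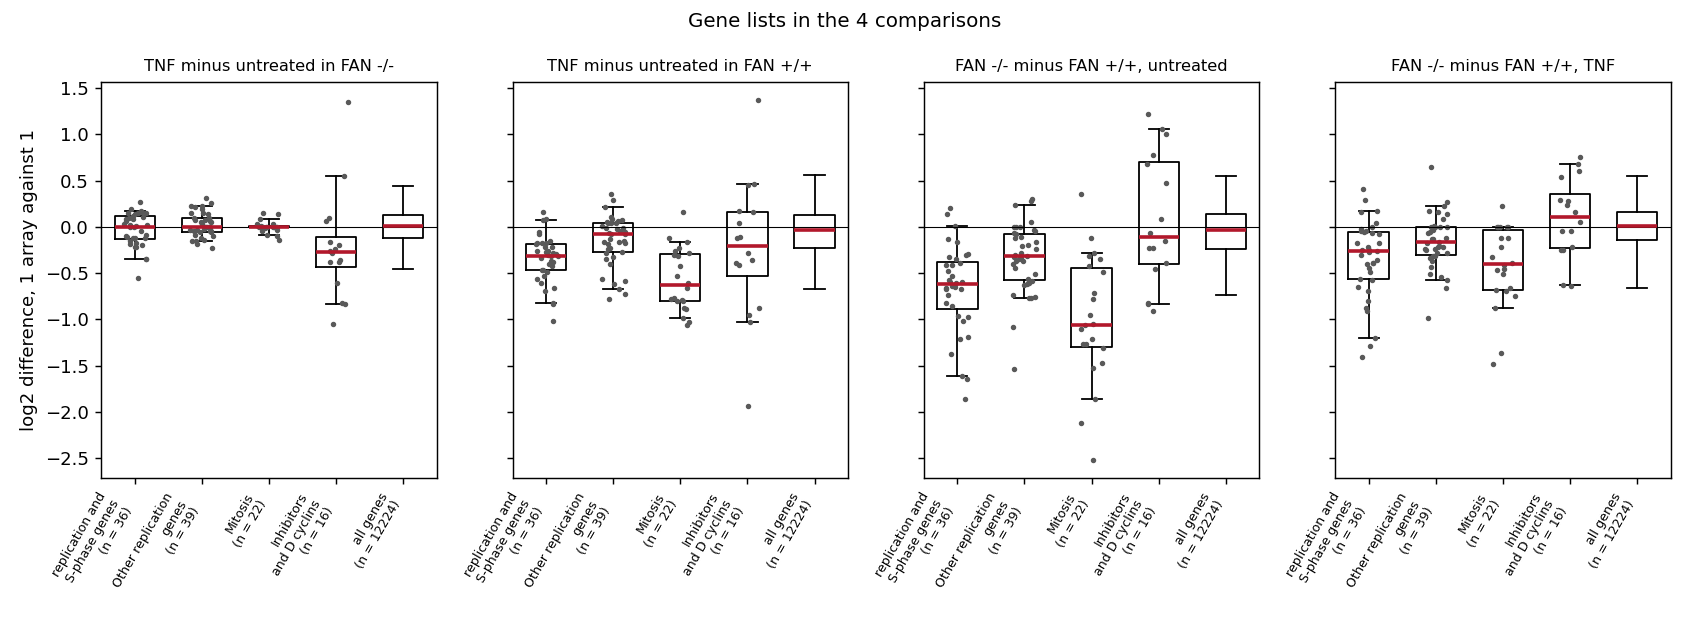
Log2 differences of 1 array against 1 (y axis) for 36 replication and S-phase genes, 39 other replication genes, 22 mitosis genes, 16 inhibitor and D cyclin genes and all 12224 genes above the floor, in each of the 4 comparisons. Dots are genes, the red line is the median, boxes span the quartiles and whiskers the 5th to the 95th percentile. Replication medians lie at 0.0045 and -0.31 for TNF in FAN -/- and FAN +/+ cells, and at -0.61 and -0.26 for genotype untreated and with TNF.

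Probe sets give a second reading of the same RNA. For 19 of the replication genes another probe set lay above the floor on all 4 arrays, 25 in all. The sign was that of the first probe set for 22 of 25 in the genotype difference with TNF, 21 untreated, 21 in the TNF response of FAN +/+ cells and 15 in that of FAN -/- cells. Across 4771 genes with several such probe sets, the median SD between probe sets was 0.12 log2 for the untreated genotype difference and 0.08 for the TNF response of FAN -/- cells.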

How the data were processed

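RNA from each of the 4 conditions went onto 1 Affymetrix mouse array. The values the authors deposited span 2.79 to 14.40 and were read as log2. MAS5 is the one tool in the submitters' processing notes. How probe sets were summarised and arrays normalized is otherwise unknown, and the number of arrays limits precision.

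Gene names came from GEO's platform annotation: 34945 of 45101 probe sets name 1 gene and 932 name several. All 88 member probe sets matched the RefSeq gene table (GRCm38.p6). Values under the 50th percentile were raised to it. Comparisons of 1 array against 1 carry no p-value. Genotype and TNF effects came from limma 3.58.1 in R 4.3.3 (lmFit, eBayes with an intensity trend, Benjamini-Hochberg over 11817 genes, prior degrees of freedom 3.52). The code was tested on simulated data with a TNF change equal in both genotypes and no genotype difference. That run does not show how the fit behaves where the TNF responses of the genotypes differ. Thresholds were 1.5-fold, and an adjusted p under 0.05.

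Members, roles and lists were chosen with earlier results of these data known. Values on every array are given for members 2-fold apart in any comparison of single arrays, past the limma test, or with the highest or lowest difference of TNF responses in their role, and for others named after their values were seen. For other lists, the 4 genes with the largest such difference and those past the test are named. Alternatives covered the floor, quantile normalization, centring, probe set choice, fold threshold and model.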

Additional observations from a re-analysis of the deposited data

Results flagged for a closer look

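In 13 replication genes TNF went with a higher value in one genotype and a lower value in the other, each by more than the median SD between probe sets of a gene. The difference of responses, FAN -/- minus FAN +/+, was 0.99 log2 for Lig1, 0.59 for Rfc3, 0.46 for Pold2, 0.44 for Rfc2, 0.42 for Cdc45, 0.41 for Pold1, 0.41 for Prim2, 0.39 for Mcm3, 0.36 for Pcna, 0.33 for Mcm2, 0.26 for Cdt1 and 0.26 for Pola2, all higher with TNF in FAN -/- and lower in FAN +/+ cells. For Orc1 it was -0.25, in the opposite order. Of all 12224 genes, 9.64% met the same rule. Of the 13 genes, 7 have another probe set above the floor on all 4 arrays, and in 2 of these, Cdt1 and Pold1, every such probe set had both signs of the first. In Mcm2, Mcm3, Prim2, Rfc2 and Rfc3 at least 1 did not. The second probe sets of Cdc45 and Orc1, above the floor on 3 arrays, were higher with TNF in both genotypes. They gave 0.29 in FAN -/- and 0.30 in FAN +/+ cells for Cdc45, and 0.0022 and 0.0589 for Orc1. The largest response of the 13 genes in FAN -/- cells, by the first probe set, was 0.28 for Rfc3. The difference was not tested, since each response is 1 array against 1.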

How the results depend on the processing

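No paired analysis was possible because each condition has 1 array, so that no groups share 2 replicate numbers. The additive fit itself compares genotypes within treatment. Leaving out an array leaves no residual degree of freedom, so it was not run. Under quantile normalization, centring, a floor at the 30th percentile or none, leaving out probe sets with a suffix, no intensity trend, and members above the floor on all 4 arrays, no median moved by more than the spread between probe sets and every count stayed within 1.5 times. The count that fell in FAN -/- cells was 9. It was 0 with all named genes, where 0 of all genes fell, and 0 without the TNF term, where 0.0508% of all genes tested fell. With the floor at the 70th percentile, which keeps 20 of the 36 in the fit, it was 3 (Mcm4, Mcm6 and Pcna), where 5.07% of all genes tested fell. With that floor 1 of the 20, Rrm2, fell with TNF, where 2.75% of all genes tested fell. Over the 25 genes above that floor on at least 1 array, the medians between genotypes were -0.41 untreated and -0.0646 with TNF. Of these 25, 9 untreated and 2 with TNF were at least 1.5-fold lower. The response was 1.5-fold less negative in FAN -/- cells for 3 of them. With all probe sets of a gene averaged, 33 genes lay above the floor. Of the 33, 3 were lower with TNF in FAN +/+ cells, 2 had a higher response in FAN -/- cells and 4 were lower in FAN -/- cells with TNF, each by at least 1.5-fold. The shares of all genes past 1.5-fold are not given for these 2 settings, so these counts are not set against them. A 2-fold threshold gave 1, 0 and 3 of 36 in these comparisons (1.92% of all genes in the first and 2.64% in the last). It gave 7 lower in untreated FAN -/- cells (2.89% of all genes). The cause of these shifts was not tested. Among repeats of the 9 called differences one by one, 57 still passed, 28 did not and 0 reversed. The 28 include the fits of all named genes and without the TNF term, in which 0 passed. Outside the 9, Rfc5, Pola1, Ccne2 and Mcm4 each passed for genotype in 1 or more alternatives.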

Other observations

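Probe sets of one gene differed in some cases, measured on the same 4 RNAs. For Fen1 the first probe set put the genotypes level, while the second had 6.71 with TNF and 6.68 untreated in FAN -/- cells, against 7.14 and 7.27 in FAN +/+ cells. For Cdt1 the second probe set had 6.86 with TNF and 6.38 untreated in FAN -/- cells, against 7.31 and 7.88 in FAN +/+ cells, which makes its difference of TNF responses 1.05 log2, beside 0.26 for the first. For Rpa2 the second probe set gave a difference of responses of 0.49, beside -0.26. Both Rpa2 probe sets were lower in FAN -/- cells in both treatments.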
